A study of Homo sapiens with 2 samples.

Results

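The genes described here are the human collagens and the proteins that modify, fold, cross-link and clear collagen, in NCI-H2030, a lung adenocarcinoma cell line. They were chosen by name, as all annotated genes named COL, a number, A and a number, with LOX, LOXL1 to LOXL4, PLOD1 to PLOD3, P4HA2, P4HA3, SERPINH1 and MRC2. This gave 56 genes, 44 collagens and 12 others, each with 1 row per table, of 55773 gene symbols in all. There were 2 RNA-seq libraries, 1 of cells treated with miR-494-3p AS and 1 of cells treated with SC. The labels spell out neither abbreviation and state no dose or time, so the libraries are called AS and SC. Every difference below is one between 2 single libraries, so no test, p-value or spread between replicates could be had.

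Collagens are proteins of 3 polypeptide chains wound into a triple helix. In the endoplasmic reticulum the prolyl 4-hydroxylases and the lysyl hydroxylases modify prolines and lysines of the chains, and SERPINH1, also known as HSP47, holds the folded helix together. Outside the cell the lysyl oxidases cross-link fibrils and networks. In lung the fibrillar collagens are made mainly by fibroblasts, while epithelial cells contribute type IV collagen to the basement membrane.

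The microRNA named in the labels gives the sequence against which the members' transcripts were read. Its mature form, from RefSeq on GRCh38.p14, chr14:101029681-101029702, plus strand, is shown with its seed, bases 2 to 8, in capitals.
hsa-miR-494-3p: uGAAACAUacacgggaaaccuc
For every gene the longest 3' UTR in GENCODE was read, on the transcript strand only, for ATGTTTCA, which pairs with the seed and carries an A after it, or for its first 7 or its last 7 bases alone. Of the 56 members, 13 held at least 1 such site and 4 held an 8-base one. Among the 26 members with a mean of at least 1 TPM, 7 (26.9%) held a site, against 27.7% of 10572 coding genes of that level. The 7 were COL4A2, COL4A3, COL4A4, COL4A5, COL8A1, P4HA2 and PLOD2. P4HA2 was the only one of the 26 with an 8-base site, which 677 of those 10572 coding genes also held. A site from each of 4 of the 7 genes is shown as an example with its flanks, the site in capitals. All 7 genes return in the results.
P4HA2 (chromosome 5, UTR bases 290 to 297): taggtgtgagATGTTTCAgtgaaccaaa
PLOD2 (chromosome 3, UTR bases 660 to 666): atcaaaccctATGTTTCtttcagatga
COL4A5 (chromosome X, UTR bases 827 to 833): ccctgttttaATGTTTCttacatcttg
COL4A2 (chromosome 13, UTR bases 3572 to 3578): atagagcatcTGTTTCAatactacaaa
Such a match is a run of letters, not a shown site of binding. PLOD2 and COL4A5 each held another match of 7 bases.

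Depth was close in both, as the commonest coverage per unit of FPKM was 3.54 in AS and 3.62 in SC. The keratins KRT8 and KRT18 stood at 345 and 479 TPM in AS, and at 486 and 558 TPM in SC. KRT7 was at 55.2 TPM in AS and 67.9 TPM in SC, and EPCAM, the other measured gene of the 8 epithelial markers, went the other way, at 1.84 TPM in AS and 0.604 TPM in SC (log2 ratio 0.82 in TPM and 1.27 in coverage). Of the rest, KRT19 and GRHL2 were listed at 0 in both libraries, and CDH1 did not pass 0.0137 TPM in either. Of 6 lung lineage markers, SFTPC and SFTA2 were listed at 0 in both, and only NAPSA reached a mean of 1 TPM. The 8 fibroblast markers summed to 75.7 TPM in AS and 74.7 TPM in SC, of which FBLN1 made up 72.5 and 72.9 TPM. LUM, the other measured marker of that list, was at 2.35 TPM in AS and 1.67 TPM in SC. POSTN was at 0.702 TPM in AS and listed at 0 in SC. PDGFRA stood at 0.00305 TPM in AS and 0.00253 TPM in SC, and DCN was at 0.0105 TPM in AS and listed at 0 in SC. The 3 endothelial markers matched summed to 0.0511 TPM in AS and 0.149 TPM in SC. PTPRC, CD3E and MS4A1 of the leukocyte list were at 0 in both libraries, and CD68, a lysosomal protein, was at 203 TPM in AS and 285 TPM in SC.

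Levels are given as TPM, the share of a gene among all transcripts, which is per length, and as coverage, the mean read depth per base. The ratio of a gene is log2((AS + 1)/(SC + 1)) in TPM, or with 0.1 in place of 1 in coverage, and it understates the difference of a gene of low level. A gene was called measured at a mean of at least 1 TPM over both libraries. This held for 26 members, 18 collagens and 8 others. The nearest genes inside this limit were COL9A3, COL27A1 and COL12A1, with means of 1.04, 1.12 and 1.28 TPM, and the nearest outside it were COL13A1, COL5A1 and COL20A1, with 0.828, 0.721 and 0.471 TPM.

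The enzymes and partners summed to a higher level than the collagens, in TPM and in coverage. All 12 enzymes and partners summed to 638 TPM in AS and 850 TPM in SC, and all 44 collagens to 180 TPM in AS and 205 TPM in SC. In coverage the sums were 320 in AS and 488 in SC for the 12, and 162 and 198 for the 44. Single genes overlapped, as LOX, LOXL1, LOXL4 and P4HA3 were under a mean of 1 TPM. None of the 26 measured members was at least 2-fold higher in AS in TPM, against 16.5% of all 13669 measured genes. In coverage none of the 26 was 2-fold higher either, against 15.2% of all. At least 2-fold lower in TPM were 2 members, MRC2 and LOXL3, against 2.17% of all genes, and in coverage MRC2 alone, against 2.96%. The remaining 24 members lay within 2-fold in TPM. The median log2 ratio of the 26 was -0.07 in TPM and -0.18 in coverage, and that of all measured genes was 0.28 in TPM and 0.20 in coverage. In TPM 12 of the 26 members (46.2%) were above 0, against 66.2% of all measured genes.

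The counts of members past 2-fold were similar when the values were taken another way. In both columns at once, no member was higher, against 11.2% of all measured genes. In FPKM, none was higher, against 9.37% of all, and 1 was lower, against 1.64%. In the TPM of the locus assembled over each gene, none was higher, against 16.1%, and 2 were lower, against 2.9%. With the median of all measured genes taken off, no member was higher in TPM, against 9.17%, or in coverage, against 9.33%. On that scale 2 members were lower in TPM, against 5.09%, and 3, MRC2, COL1A1 and PLOD1, in coverage, against 5.42%. With coding genes set against the median of genes of like GC content, none was higher in TPM, against 4.87%, or in coverage, against 2.8%. There 2 were lower in TPM, against 2.86%, and 1 in coverage, against 1.86%. MRC2 was among the lower genes under every one of these rules.

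**Figure D1:**
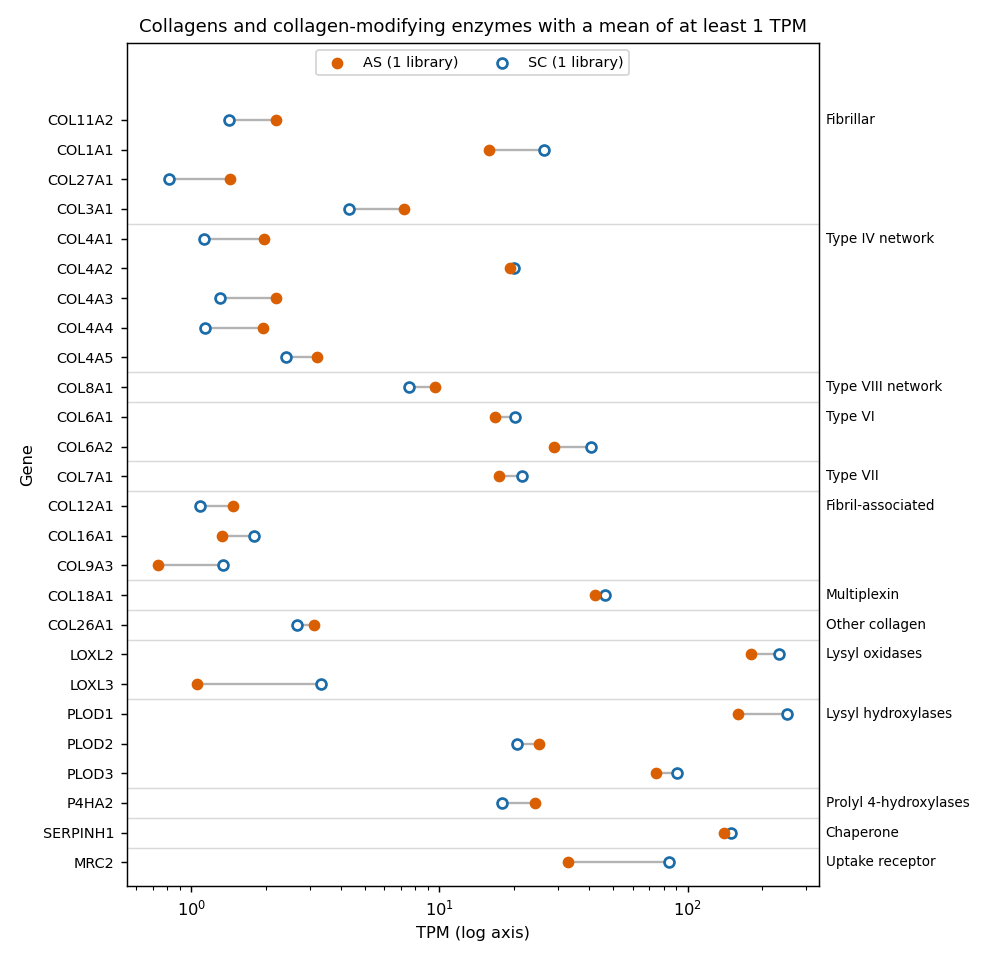
TPM on a log axis of the 26 collagens and collagen-modifying enzymes with a mean of at least 1 TPM, by role, in 1 AS library (filled) and 1 SC library (open), with a line joining the values of a gene. LOXL2, PLOD1 and SERPINH1 lie above 100 TPM in both libraries, and the longest lines, with AS on the left, are those of LOXL3 (1.06 and 3.34 TPM) and MRC2 (32.9 and 84.1 TPM).

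The fibrillar collagens form the load-bearing fibrils of connective tissue. COL1A1, the alpha 1 chain of type I collagen (ENSG00000108821, chromosome 17, 48260650 to 48278993, minus strand, GRCh37), was at 15.8 TPM in AS and 26.3 TPM in SC, a log2 ratio of -0.70. Its coverage was 23.4 in AS and 41.6 in SC (-0.83). COL1A2, which encodes the partner chain of the type I heterotrimer, was listed at 0 in both libraries. COL3A1, the chain of type III collagen (chromosome 2, 189839046 to 189877472, plus strand), had the higher level in AS, with 7.23 TPM in AS and 4.32 TPM in SC (0.63) and a coverage of 12.0 and 7.92 (0.60). The level of COL1A1 was thus 2.19 times that of COL3A1 in AS and 6.08 times in SC, and 1.94 and 5.25 times in coverage.

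The 2 minor fibrillar chains above the limit were also higher in AS in both measures. COL11A2, a chain of type XI collagen of cartilage, was at 2.19 TPM in AS and 1.42 TPM in SC (0.40 in TPM, 0.47 in coverage). COL27A1 stood at 1.43 TPM in AS and 0.815 TPM in SC (0.42 in TPM, 0.59 in coverage). The other 7 fibrillar genes were under a mean of 1 TPM. Among them COL5A1, whose product sets fibril diameter, had 0.473 TPM in AS and 0.968 TPM in SC, with a coverage of 0.535 and 0.712. COL11A1 was listed at 0 in both libraries.

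Type IV collagen is the network of the basement membrane, and its 6 genes lie in 3 pairs that face away from each other around a shared start region. COL4A2 was the main type IV transcript, at 19.2 TPM in AS and 19.9 TPM in SC (log2 ratio -0.05), with a coverage of 23.5 in AS and 26.9 in SC (-0.20). COL4A1, which pairs with it in the protein, was at 1.96 TPM in AS and 1.12 TPM in SC (0.48), with a coverage of 3.25 and 2.06 (0.63). The pair thus differed in level, COL4A2 being 9.79 times COL4A1 in AS and 17.8 times in SC. In RefSeq the starts of COL4A1 and COL4A2 are 127 bases apart on opposite strands, so that windows of 250 bases before to 50 bases after each start share 226 bases. The window of COL4A2 is shown because 2 genes of unequal level start in or beside it, with the bases also in the window of COL4A1 in capitals (GRCh38.p14, chr13:110307034-110307333, plus strand).
COL4A2: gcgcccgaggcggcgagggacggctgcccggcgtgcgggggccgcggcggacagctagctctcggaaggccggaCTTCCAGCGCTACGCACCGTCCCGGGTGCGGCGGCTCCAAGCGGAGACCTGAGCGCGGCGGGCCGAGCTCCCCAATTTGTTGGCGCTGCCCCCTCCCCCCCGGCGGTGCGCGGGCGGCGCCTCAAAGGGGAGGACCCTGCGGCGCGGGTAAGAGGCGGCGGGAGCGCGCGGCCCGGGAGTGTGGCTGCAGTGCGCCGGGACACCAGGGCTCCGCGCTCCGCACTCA
It held 1 CCAAT and 1 GGGCGG on either strand. Of 27305 RefSeq start windows of this length, 35.7% held CCAAT and 44.6% GGGCGG.

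COL4A3 and COL4A4, chains of the kidney and lung basement membranes, form the next pair, with starts 419 bases apart on chromosome 2. COL4A3 was at 2.20 TPM in AS and 1.31 TPM in SC, and COL4A4 at 1.95 TPM in AS and 1.14 TPM in SC, log2 ratios of 0.47 and 0.47. COL4A3 was 1.13 times COL4A4 in AS and 1.15 times in SC. In coverage the likeness did not hold, at 2.05 in AS and 2.04 in SC for COL4A3 (0.01) and 3.25 in AS and 2.08 in SC for COL4A4 (0.62). The window of COL4A4, in which the 82 bases shared with COL4A3 are in capitals, is shown beside that of the first pair (GRCh38.p14, chr2:227164156-227164455, minus strand).
COL4A4: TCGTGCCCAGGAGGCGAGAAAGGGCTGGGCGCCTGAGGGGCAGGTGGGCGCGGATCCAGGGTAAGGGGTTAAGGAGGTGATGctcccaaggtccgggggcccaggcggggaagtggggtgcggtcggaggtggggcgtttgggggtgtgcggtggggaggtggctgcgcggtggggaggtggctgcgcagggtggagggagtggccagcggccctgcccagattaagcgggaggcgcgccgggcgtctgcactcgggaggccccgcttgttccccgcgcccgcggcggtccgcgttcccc
It held neither CCAAT nor GGGCGG, whereas that of COL4A2 held both. The window of COL4A3, not shown, held GGGCGG but not CCAAT. Of the X-linked pair, COL4A5 was at 3.21 TPM in AS and 2.41 TPM in SC (0.31), with a coverage of 5.24 and 3.98 (0.39). COL4A6 had 0.249 TPM in AS and 0.0350 TPM in SC. Its coverage was 0.141 in AS and 0.0641 in SC, about 6.33 and 2.88 reads by the estimate given below.

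The other network and filament collagens were led by type VI and type XVIII. COL6A2, a chain of the beaded filaments of type VI collagen (chromosome 21, 47518011 to 47552763), was at 28.98 TPM in AS and 40.6 TPM in SC (log2 ratio -0.47), with a coverage of 10.4 in AS and 14.0 in SC (-0.43). COL6A1, which lies beside it, was at 16.7 TPM in AS and 20.2 TPM in SC (-0.26), with a coverage of 18.6 and 22.9 (-0.30). COL6A2 was the higher of the 2 in TPM and COL6A1 in coverage, in both libraries. COL6A3, the chain that completes the type VI trimer, was at 0.0212 TPM in AS and 0.369 TPM in SC, but its coverage was 0.0353 in AS and 0.0404 in SC. COL18A1, which carries the endostatin fragment, was the collagen of highest TPM, at 42.3 TPM in AS and 46.6 TPM in SC (-0.14), with a coverage of 19.2 and 25.1 (-0.38). In coverage COL1A1, COL4A2 and COL7A1 stood above it in both libraries.

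COL7A1, the anchoring fibril collagen that ties epithelium to the underlying stroma, was at 17.3 TPM in AS and 21.5 TPM in SC (-0.30), with a coverage of 22.5 in AS and 30.1 in SC (-0.41). COL8A1, a short-chain network collagen, was at 9.59 TPM in AS and 7.57 TPM in SC (0.31), with a coverage of 1.84 and 1.58 (0.21). Of 10 fibril-associated collagens 3 were measured. COL12A1 had 1.47 TPM in AS and 1.09 TPM in SC (0.24 in TPM, 0.27 in coverage), but its assembled locus was at 2.54 TPM in AS and 4.78 TPM in SC (-0.71). COL16A1 was lower in AS, with 1.33 TPM in AS and 1.79 TPM in SC (-0.26 in TPM, -0.75 in coverage), as was COL9A3, at 0.736 TPM in AS and 1.34 TPM in SC (-0.43 in TPM, -0.08 in coverage). COL26A1 was at 3.12 TPM in AS and 2.67 TPM in SC (0.17), whereas its coverage was 2.72 in AS and 4.63 in SC (-0.75). None of the 4 transmembrane collagens was measured. The assembled locus also had the other sign in COL6A1 (0.22), COL7A1 (0.04) and COL9A3 (0.06).

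The lysyl hydroxylases hydroxylate lysines of the chains, which later carry sugars and cross-links, and all 3 were measured. PLOD1, the enzyme of the helical region (ENSG00000083444, chromosome 1, 11994262 to 12035595, plus strand), had the highest mean TPM of the 56 genes after LOXL2, though not the highest coverage. It was at 159 TPM in AS and 252 TPM in SC (log2 ratio -0.66), with a coverage of 40.5 in AS and 71.4 in SC (-0.82). PLOD3, which also transfers glucose onto hydroxylysine, was at 74.4 TPM in AS and 90.3 TPM in SC (-0.28), with a coverage of 59.1 and 82.5 (-0.48). PLOD2, which acts on the telopeptides and is known to be induced by hypoxia, went the other way, at 25.2 TPM in AS and 20.6 TPM in SC (0.28), with a coverage of 21.7 and 18.5 (0.23). PLOD1 was 6.32 times PLOD2 in AS and 12.2 times in SC, or 1.86 and 3.86 times in coverage. The sum of the 3 was 259 TPM in AS and 363 TPM in SC.

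The lysyl oxidases oxidise lysines of collagen and elastin to start cross-links. LOXL2 (ENSG00000134013, chromosome 8, 23154702 to 23282841, minus strand) had the highest mean TPM of the 56 genes, though not the highest coverage. It made up most of its family. It was at 180 TPM in AS and 232 TPM in SC (log2 ratio -0.37), with a coverage of 35.4 in AS and 51.5 in SC (-0.54). LOXL3 was the 1 gene called lower in TPM and not in coverage. It had 1.06 TPM in AS and 3.34 TPM in SC (-1.08), but its coverage was 1.76 in AS and 1.35 in SC (0.35). Its coverage per unit of FPKM was 3.54 in AS and 0.801 in SC. The first is the commonest value of its library, shared within 1% by 27.2% of measured genes, and the second is under the commonest value in SC, 3.62, shared by 31.1%. LOX itself was listed at 0 in SC and at 0.118 TPM in AS. LOXL4 was likewise listed at 0 in SC, with 0.172 TPM in AS, and LOXL1 had 0.578 TPM in AS and 0.278 TPM in SC.

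The remaining modifiers were the chaperone, a prolyl 4-hydroxylase and an uptake receptor. SERPINH1 was close to level, at 140 TPM in AS and 149 TPM in SC (log2 ratio -0.09), with a coverage of 109 and 127 (-0.22). P4HA2, a catalytic subunit of prolyl 4-hydroxylase and the holder of the 8-base site shown above, was at 24.3 TPM in AS and 17.9 TPM in SC (0.42), but its coverage was 2.62 in AS and 2.96 in SC (-0.17). The locus assembled over P4HA2 was at 50.03 TPM in AS and 55.0 TPM in SC (-0.13), so its direction depends on the measure.

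MRC2, also known as Endo180, is a receptor that takes up collagen fragments for lysosomal breakdown. It was the only measured member called lower in both columns, against 1.19% of all measured genes (ENSG00000011028, chromosome 17, 60704762 to 60770958, plus strand). It was at 32.9 TPM in AS and 84.1 TPM in SC, a log2 ratio of -1.33. Its coverage was 48.3 in AS and 132 in SC (-1.45), and its assembled locus was at 33.8 TPM in AS and 84.0 TPM in SC (-1.29). All 3 measures thus placed MRC2 more than 2-fold lower in AS. Its transcript has a GC content of 63.7%, among the 1077 measured coding genes of highest GC content. Of those, 4.92% were at least 2-fold lower in TPM and 6.41% in coverage.

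**Figure D2:**
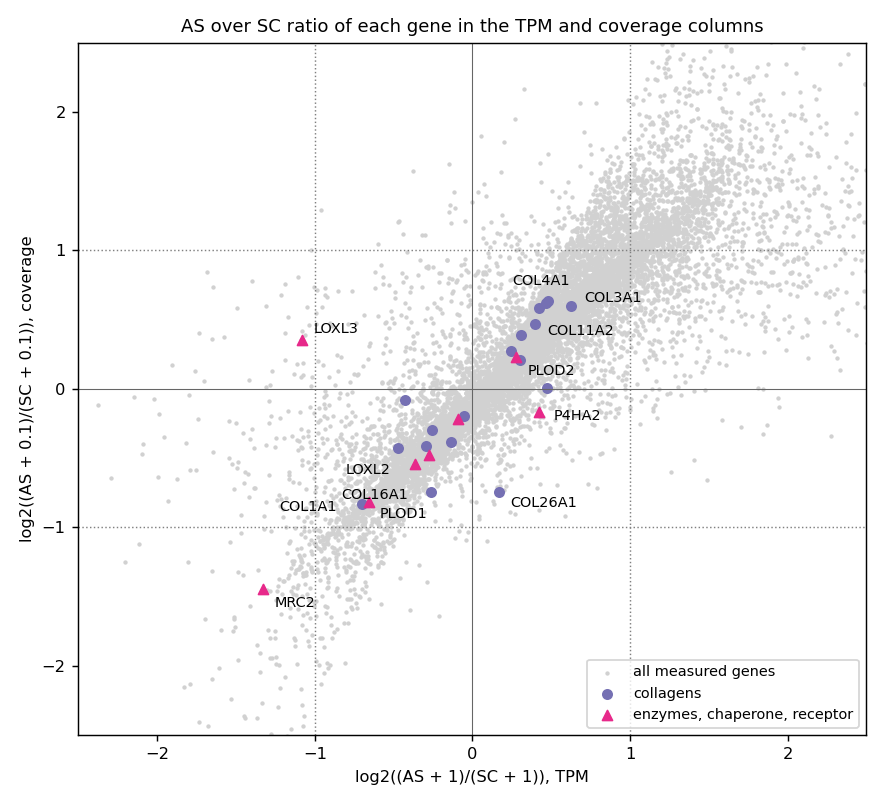
The log2 ratio of AS over SC in TPM (x axis) and in coverage (y axis) for all measured genes (grey), the 18 measured collagens (circles) and the 8 measured modifiers (triangles), with dotted lines at 2-fold. Genes beyond the axes are not drawn. MRC2 lies beyond 2-fold on both axes (-1.33 and -1.45), and LOXL3, P4HA2 and COL26A1 lie in the quadrants where the measures have opposite signs.

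In 3 of the 26 measured members, LOXL3, P4HA2 and COL26A1, the TPM and the coverage pointed in opposite directions, as they did in 1456 of all 13669 measured genes, a similar share. Across the 26 genes, which are not replicates and share both libraries, Pearson's correlation of the 2 log2 ratios was 0.71, and across 10768 coding genes it was 0.84. In only 4 members, COL3A1, COL4A1, COL4A4 and COL11A2, was the coverage per FPKM within 1% of the commonest value of its library in both libraries, against 24.5% of all measured genes. In the other 22 it differed from that value in a library or in both.

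The ratio of a gene moved with the GC content of its transcript in these libraries, and the transcripts of most measured members were rich in G and C. Over the 10768 measured coding genes GC content and the ratio had a Spearman's rho of -0.64 in TPM and -0.70 in coverage, and over the 26 members of -0.53 and -0.50, as a description across genes of 1 pair of libraries. The median GC content was 61.7% in the 18 measured collagens and 58.4% in the 8 measured modifiers, against 51.2% in the coding genes. Over all 44 collagens, measured or not, it was 55.3%. The coding genes were ranked by GC content and split into 10 bands of equal size. Of the 26 members, 16 were in the 3 bands of highest GC content and 1, PLOD2, in the 3 lowest. After the median of its band was taken off each gene, the median log2 ratio was 0.04 in the collagens and -0.45 in the modifiers in TPM, and 0.05 and -0.42 in coverage.

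Several members stood away from the median of their band on the same side in TPM and in coverage, given in that order on the log2 scale. MRC2 was below it (-1.04 and -1.02). PLOD1 (-0.59 and -0.61), PLOD2 (-0.63 and -0.68), COL1A1 (-0.51 and -0.51) and LOXL2 (-0.30 and -0.33) were also below it. So were COL12A1 (-0.40 and -0.29) and COL8A1 (-0.33 and -0.35), though both were higher in AS. PLOD2, though higher in AS, was thus lower than coding genes of its band, whose median ratio was 0.91 in both columns. COL11A2 (0.68 and 0.90), COL27A1 (0.61 and 0.91), COL4A1 (0.44 and 0.73) and COL3A1 (0.38 and 0.47) were above it. In TPM 7 of the 8 modifiers lay below the median of their band and 8 of the 18 collagens did, and in coverage 7 of 8 and 7 of 18. The part of GC content in these ratios was not tested.

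**Figure D3:**
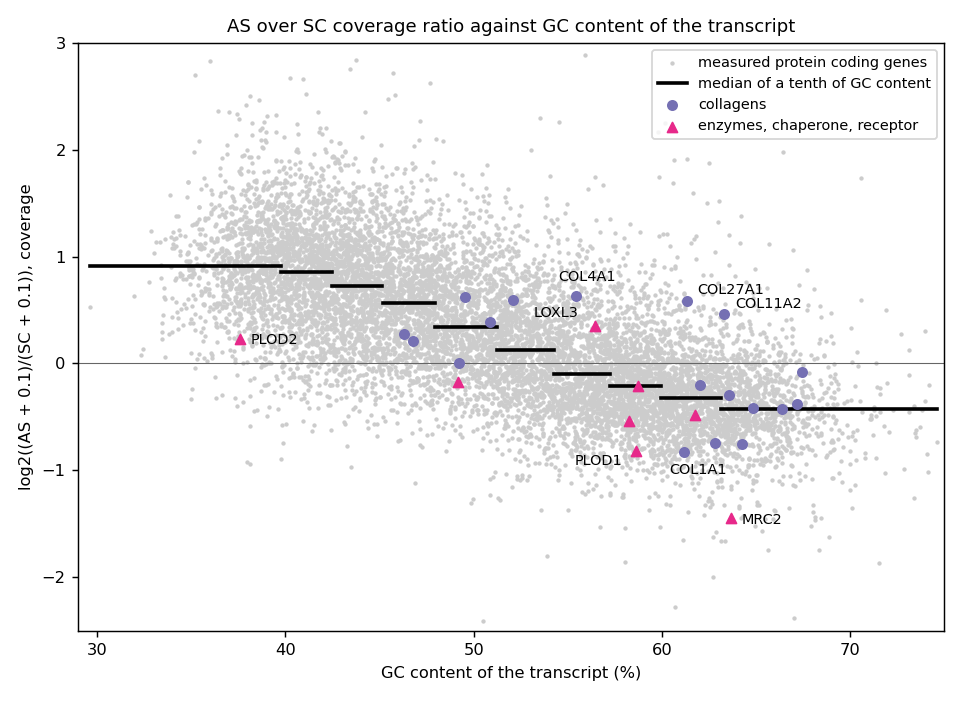
The log2 ratio of AS over SC in coverage (y axis) against the GC content of the transcript in percent (x axis) for measured coding genes (grey), with the median of each of 10 GC bands as a black bar, the measured collagens (circles) and modifiers (triangles). The band medians run from 0.91 at the lowest GC content to -0.43 at the highest, MRC2 lies well under its bar, and COL11A2 and COL27A1 lie above theirs.

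The 30 members under a mean of 1 TPM included the second type I chain, all 3 type V chains and 3 of the 5 lysyl oxidases. Of these, 7 were listed at 0 in both libraries, COL1A2, COL6A5, COL10A1, COL11A1, COL14A1, COL19A1 and COL25A1. Another 4 were listed at 0 in SC only, COL8A2, COL9A1, LOX and LOXL4, and 4 in AS only, COL2A1, COL5A3, COL6A6 and COL21A1. With a row of 150 aligned bases as the commonest among rows of low depth, the coverage of LOX in AS (0.196) corresponds to about 6.66 reads over a transcript of 5102 bases, and that of LOXL4 (0.287) to about 6.98. COL5A3, with a coverage of 0.201 in SC, corresponds to about 8.27 reads. A listing at 0 is thus near what these depths can show, and no ratio is given for it.

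Of the 15 members under the limit but above 0 in both, 9 had the higher TPM in AS, as did 66.2% of all measured genes. No such share was taken over all genes under the limit. COL17A1, the hemidesmosome collagen of epithelial cells, had a coverage of 0.371 in AS and 0.0453 in SC, about 14.1 and 1.72 reads. COL20A1 was at 0.745 TPM in AS and 0.196 TPM in SC, with a coverage of 0.618 and 0.271, about 33.3 and 14.6 reads. P4HA3, a further catalytic subunit of prolyl 4-hydroxylase, had a coverage of 0.233 in AS and 0.840 in SC, about 3.49 and 12.6 reads. COL13A1, a transmembrane collagen, was level, at 0.831 TPM in AS and 0.826 TPM in SC. These read numbers are approximate, since they rest on the coverage column and on a transcript length from another annotation. The coverage per FPKM was 1.56 for P4HA3 in AS, and 1.76 in AS and 2.73 in SC for COL20A1. These lie under the commonest value of each library.

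**Figure D4:**
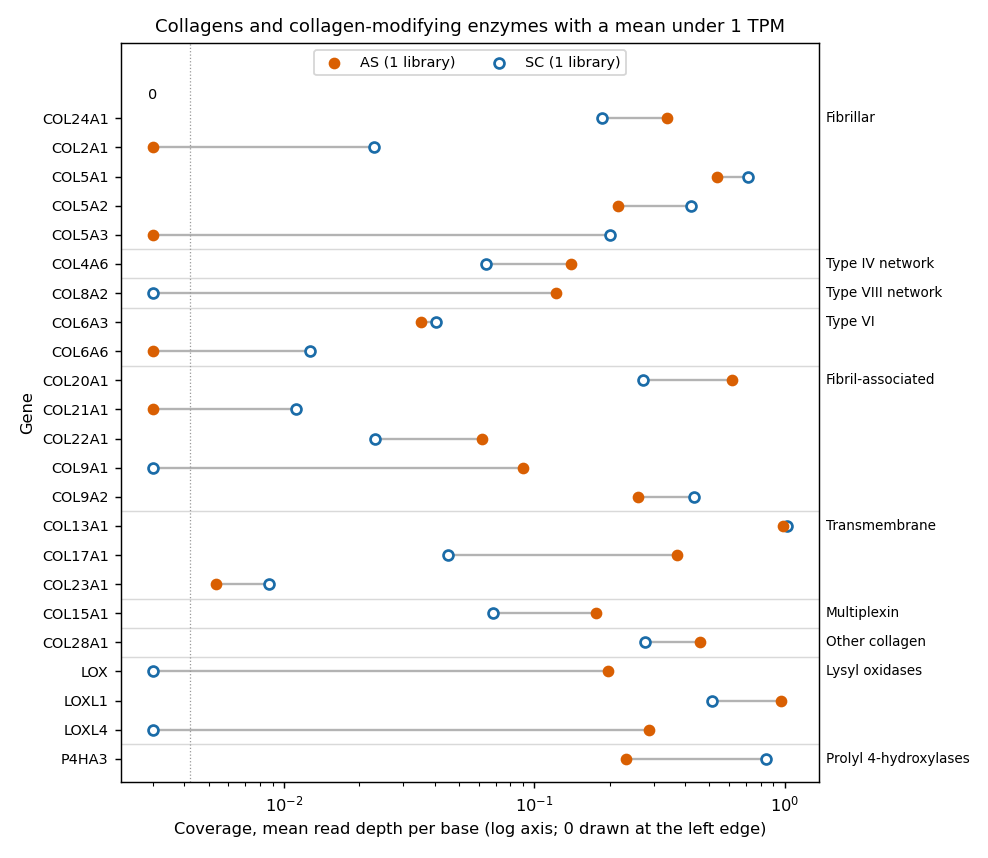
Coverage, the mean read depth per base, on a log axis for the 23 members with a mean under 1 TPM and a value above 0 in a library, in 1 AS library (filled) and 1 SC library (open), with 0 drawn at the left edge. LOX, LOXL4, COL8A2 and COL9A1 are at 0 in SC only, and COL2A1, COL5A3, COL6A6 and COL21A1 in AS only.

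Among 49 other genes of collagen synthesis, secretion, adhesion and breakdown, 28 were measured. Of these 4 were at least 2-fold higher in AS in TPM, against 16.5% of all measured genes, and none was 2-fold lower. In coverage 3 were higher, against 15.2% of all, and none lower. These shares of the 28 are no larger than those of all genes. The 4 were P4HA1, MIA3, FN1 and ITGB1. P4HA1, the main catalytic subunit of prolyl 4-hydroxylase, was at 24.3 TPM in AS and 11.4 TPM in SC (log2 ratio 1.03 in TPM, 0.96 in coverage). It was level with P4HA2 in AS in TPM but not in coverage, which was 36.4 for P4HA1 and 2.62 for P4HA2. MIA3, which encodes TANGO1 and loads procollagen into carriers leaving the endoplasmic reticulum, was at 9.52 TPM in AS and 1.63 TPM in SC (1.998 in TPM, 1.24 in coverage).

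FN1, which encodes fibronectin, the scaffold on which collagen fibrils assemble, was at 13.2 TPM in AS and 3.49 TPM in SC (1.66 in TPM, 1.14 in coverage). ITGB1, the beta chain of the collagen-binding integrins, was at 133 TPM in AS and 55.1 TPM in SC (1.26 in TPM, 1.10 in coverage). P4HA1, MIA3 and ITGB1 have transcripts of low GC content, at 40.8%, 41.1% and 38.5%, where 40.6% to 42.6% of coding genes were at least 2-fold higher in TPM. FN1 has 50.2%, in a band where 16.5% were. The median log2 ratio of the 28 was 0.14 in TPM, against 0.28 for all measured genes.

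Of the 6 genes of that list with the highest mean TPM, 4 were lower in AS, each by less than 2-fold. Of all 13669 measured genes, 4620 had a TPM ratio below 0. P4HB, the protein disulfide isomerase that is also the beta subunit of prolyl 4-hydroxylase, was at 1112 TPM in AS and 1726 TPM in SC (-0.63). PPIB, the prolyl isomerase cyclophilin B, was at 925 TPM in AS and 1420 TPM in SC (-0.62). FKBP10, a chaperone of procollagen, was at 695 TPM in AS and 818 TPM in SC (-0.23). TGM2, a transglutaminase that cross-links matrix proteins, was at 312 TPM in AS and 503 TPM in SC (-0.69). HSPA5, the general chaperone BiP, had 197 TPM in AS and 127 TPM in SC (0.63), and PDIA3 was at 159 TPM in AS and 143 TPM in SC (0.15). In coverage the log2 ratios of the 6, in the order named, were -0.82, -0.77, -0.38, -0.83, 0.49 and 0.01. Their GC contents, in that order, are 58.4%, 58.2%, 59.5%, 55.1%, 46.0% and 43.8%.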

How the data were processed

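Per the file headers, each of the 2 deposited tables gives coverage, FPKM and TPM signal per annotated gene and per assembled locus. No label or header names an aligner or a quantification program (not given in the sources used here), and without read counts no interval for counting error was made. The submitters' processing notes name GRCh38 and hg38, but 0 of 56 member rows had a start or end of GENCODE release 29 on GRCh38, and their coordinates are those of GRCh37. Rows of 1 symbol were summed. Ratios used a pseudocount of 1 in TPM and 0.1 in coverage, and a call needed a log2 ratio of at least 1 in size. GC content, from GENCODE 29 by gene identifier, is that of the transcript with the longest coding sequence, and 3' UTRs are the longest annotated. RefSeq start windows matched 41 members. The assembled locus is the one with the largest same-strand overlap. Every measured member is named, others from 0.5 TPM in a library or where listed at 0, and further members below that were chosen after their values were seen. Of the pathway list, genes past 2-fold and the 6 most abundant are named. The members and lists were chosen with earlier results of these data known. Python 3.11.15, pandas 2.3.3 and matplotlib 3.10.9 were used, and the ratio step was tested on simulated data. Alternatives covered pseudocounts, filters, columns, loci and centring.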

Additional observations from a re-analysis of the deposited data

How the results depend on the processing

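No paired analysis was possible because each group has 1 library, and for the same reason no replicate could be left out. The count of measured members at least 2-fold higher in AS was 0 under all alternatives run. Coverage with no filter on low values counts all 56 members, and there it was 4, COL8A2, COL17A1, LOX and LOXL4, all under 1 TPM and all but COL17A1 listed at 0 in SC. The count at least 2-fold lower was 2, and it was 1, MRC2, with a pseudocount of 5, with a mean of at least 5 TPM, in FPKM, in coverage and in coverage minus the median of the GC band. It was 3 in coverage minus the median of all genes, and 3 of 56 in coverage with no filter. No share over all genes was taken without the filter, so the 2 counts over 56 members have none beside them. A call against a listing at 0 rests on the pseudocount. The median log2 ratio of the members was -0.07. It was -0.26 with a mean of at least 5 TPM, -0.18 in coverage, -0.35 after the median of all measured genes was taken off and -0.39 when that was done in coverage. The log2 ratio of LOXL3 was -1.08 in TPM, -0.85 in FPKM and -1.21 in the TPM of the assembled locus. In coverage it was 0.35, with or without the filter. It was 0.15 in coverage minus the median of all genes and 0.45 in coverage minus that of the GC band. The cause was not tested. Of the other values of single members, 305 moved by less than 1.5-fold and 18 by more. The coverage values with centring or without the filter were chosen after seeing the data. Members under 1 TPM rest on a few reads, and 1 library a group gives no error for any ratio.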

Other observations

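Some genes around collagen that are not described above were chosen after their values were seen. Of the prolyl 3-hydroxylase family, P3H2, which acts on type IV collagen, was at 66.2 TPM in AS and 41.3 TPM in SC (log2 ratio 0.67 in TPM, 0.54 in coverage). P3H1, which acts on type I collagen, was at 41.9 TPM in AS and 58.2 TPM in SC (-0.47 in TPM, -0.58 in coverage), and P3H3 was at 14.3 TPM in AS and 22.1 TPM in SC (-0.60 in TPM, -0.59 in coverage). Their transcripts have GC contents of 51.0%, 57.5% and 65.2%. MMP14, the membrane collagenase, was at 124 TPM in AS and 125 TPM in SC (-0.01 in TPM, -0.31 in coverage). The secreted collagenases MMP8 and MMP13 were listed at 0 in both libraries. Of the collagen receptors, DDR1 was at 46.9 TPM in AS and 53.6 TPM in SC (-0.19), and DDR2 at 0.0616 TPM in AS and 0.00714 TPM in SC.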
